A study of Mus musculus with 9 samples.

Results

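The genes described here are 41 mouse genes that interferon is known to induce, many of whose products act against viruses. They were chosen by name, as the rows of the deposited expression table with those gene symbols, and all 41 were found among its 24493 genes. Bulk RNA was sequenced from mouse cells of a pancreatic tumor on a C57BL/6 background, cultured in DMEM with 10% FBS and given no treatment. The study compared a parental tumor cell line with escape e1 and escape e2, cells derived from it that the series calls resistant to immunotherapy, with 3 libraries in each of the 3 groups. The labels do not say how resistance was selected, whether e1 and e2 are single clones, or whether a group's libraries are from separate cultures. The p-values below therefore measure only the spread between these libraries, which may be technical.

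Type I interferons bind a receptor made of Ifnar1 and Ifnar2, and the kinases Jak1 and Tyk2 then pass the signal on. Transcription factors that include Stat2 and Irf9 bind the interferon-stimulated response element, a short DNA motif in the promoters of many interferon-induced genes. The products tag proteins, bind or cut foreign RNA, block translation or hold virus particles at the cell surface. Many tumor cells express such genes without added interferon, and the program has been studied in resistance to radiation, chemotherapy and immune checkpoint blockade.

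Levels are given in TPM, a unit scaled for transcript length and library size from which read depth cannot be recovered. A gene was tested if it reached 1 TPM in at least 3 of the 9 libraries, which 12769 genes and 38 of the 41 members did. Fold changes are differences of log2(TPM + 1) with their standard error (SE) from limma, and a gene was called higher or lower at a Benjamini-Hochberg adjusted p under 0.05 over all genes tested. Adding 1 TPM understates the change of genes at low levels. Each gene had 1 estimate of spread over all 3 groups, so a wide spread in e1 also enters its e2 against parental p-value. All 11 markers of pancreatic ductal tumor cells fixed for the check, among them Krt19, Epcam and Pdx1, averaged 1 TPM or more in the parental cells, against 8 in e1 and 9 in e2. Their summed level was 8370 to 9670 TPM in parental, 1220 to 1270 TPM in e1 and 1780 to 1850 TPM in e2 libraries. Sox9 was called higher in both lines (1.43 in e1 and 2.62 in e2) and the other 10 lower. Of all tested genes, 34.9% were called lower in e1 and 32.7% in e2. Of 10 fibroblast markers, 1 reached a mean of 1 TPM in parental, 6 in e1 and 8 in e2 cells. Their sums were 17.0 to 20.1, 321 to 345 and 306 to 319 TPM, and Lum was listed at 0 in every library. Of 10 macrophage and dendritic cell markers, 2, 1 and 3 reached that mean. Their sums were 21.0 to 29.9, 3.22 to 4.50 and 9.15 to 10.3 TPM. Of the 2 that were tested, Mrc1 was called lower in both lines and Cd68 higher in both. The T and NK cell markers summed to at most 0.5 TPM and the endothelial markers to at most 0.905 TPM in any library. The part of these shifts in the changes below was not tested, and in bulk RNA fewer cells of a type and less RNA per cell cannot be told apart.

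The e1 libraries were not alike for these genes, so member calls that change without library 1 are also given without it. Genes of the interferon pathway lists below were fitted with all libraries only. Library 1 was the highest of the 3 e1 libraries for 32 of the 41 members, the middle one for 5 and the lowest for 4 (Uba7, Isg20, Trim21 and Samd9l). Among tested members that was 30 of 38, or 78.9%, against 38.5% of all tested genes, for which library 1 was more often the lowest (48.9%). The median difference of library 1 from the mean of libraries 2 and 3 was 0.49 on the log2(TPM + 1) scale for the members and -0.03 for all tested genes. It was at least 0.5 for 18 of the 38 members (47.4%) and for 3.17% of tested genes. For each parental and e2 library, the same median over the members lay between -0.04 and 0.05. The ductal marker sum of e1 library 1 was 1220 TPM against 1270 and 1230 TPM in e1 libraries 2 and 3, and its fibroblast marker sum was 321 TPM against 341 and 345 TPM. Within these sums single markers of library 1 differed in both directions. Krt19 was lower (24.1 against 57.5 and 54.1 TPM) and Krt18 higher (442 against 346 and 344 TPM). Col3a1 was lower (51.5 against 89.0 and 89.1 TPM) and Col1a1 higher (132 against 87.3 and 89.8 TPM). Over all tested genes, library 1 correlated with each of the others at 0.9868, and those with each other at 0.9944. Fewer genes reached 1 TPM in e1 library 1 (11188) than in the other libraries, up to 12039.

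**Figure D1:**
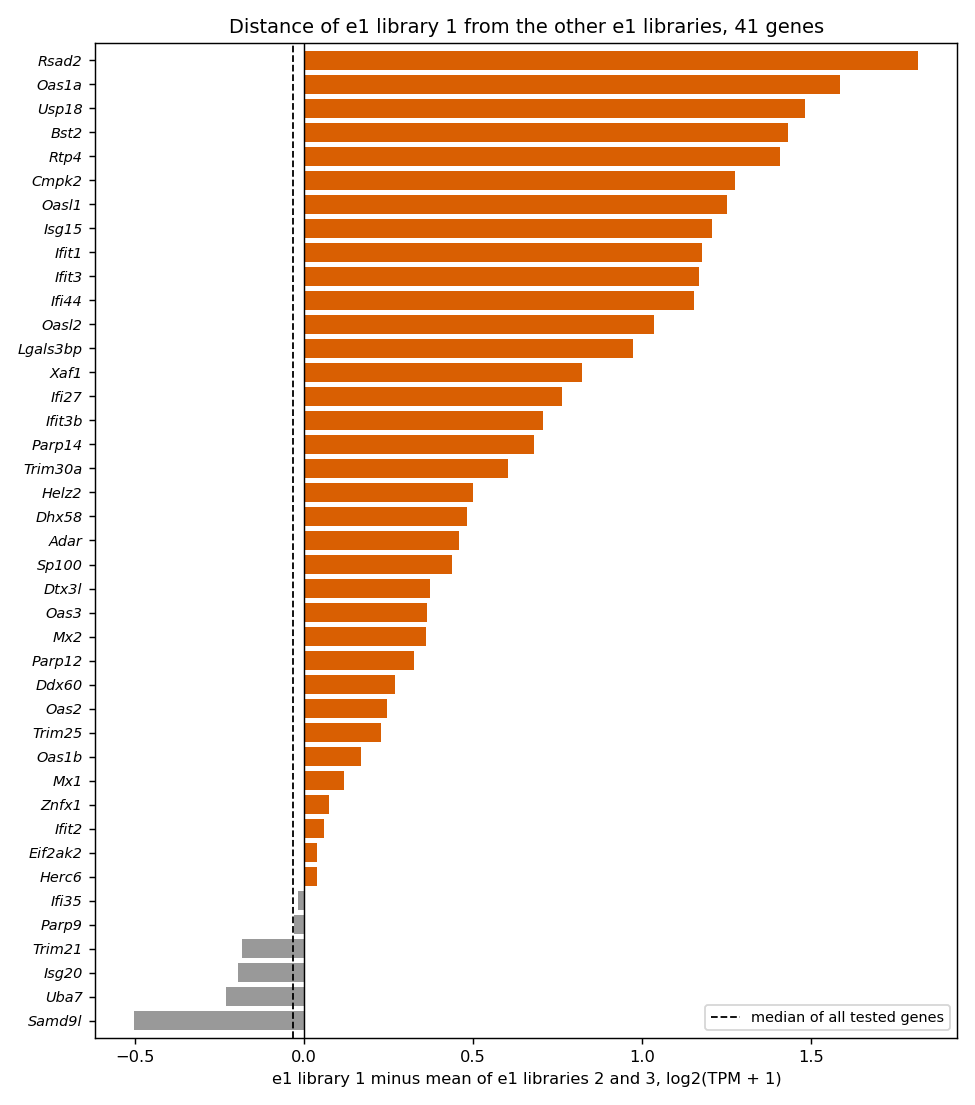
Difference between escape e1 library 1 and the mean of escape e1 libraries 2 and 3 for each of the 41 genes, in log2(TPM + 1), with 1 bar per gene and the median of all tested genes (-0.03) as a dashed line. Bars reach from -0.50 for Samd9l to 1.82 for Rsad2.

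Most members stood higher in both derived lines than in the parental cells. In e1, 23 of the 38 tested members were called higher (60.5%) and 5 lower (13.2%), where 35.7% of all tested genes were called higher and 34.9% lower. In e2, 33 members were called higher (86.8%) and 2 lower (5.26%), where 40.8% of all tested genes were called higher and 32.7% lower. Against e1, e2 had 28 members called higher (73.7%) and 1 lower (2.63%), where 40.6% of tested genes were called higher and 29.7% lower. The median log2 fold change over the members was 0.60 in e1, 1.70 in e2 and 0.93 for e2 minus e1, against 0.02, 0.07 and 0.09 over all tested genes. Both lines share the parental libraries, so their counts are not separate evidence of each other.

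These counts are a description, because 18 of the 38 tested members were below 1 TPM in all 3 parental libraries and could be tested only through the derived lines. Among the 18 members at 1 TPM or more in all parental libraries, 9 were called higher and 5 lower in e1, and 13 higher and 2 lower in e2. Of the 11450 genes at that parental level, 33.5% were called higher and 38.1% lower in e1, and 36.9% higher and 36.2% lower in e2. Against e1, 13 of these 18 members were called higher and 1 lower in e2, where 39% and 31% of such genes were. Without e1 library 1, the counts over the tested members were 24 higher and 6 lower in e1, 35 higher and 2 lower in e2, and 32 higher and 2 lower for e2 minus e1.

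**Figure D2:**
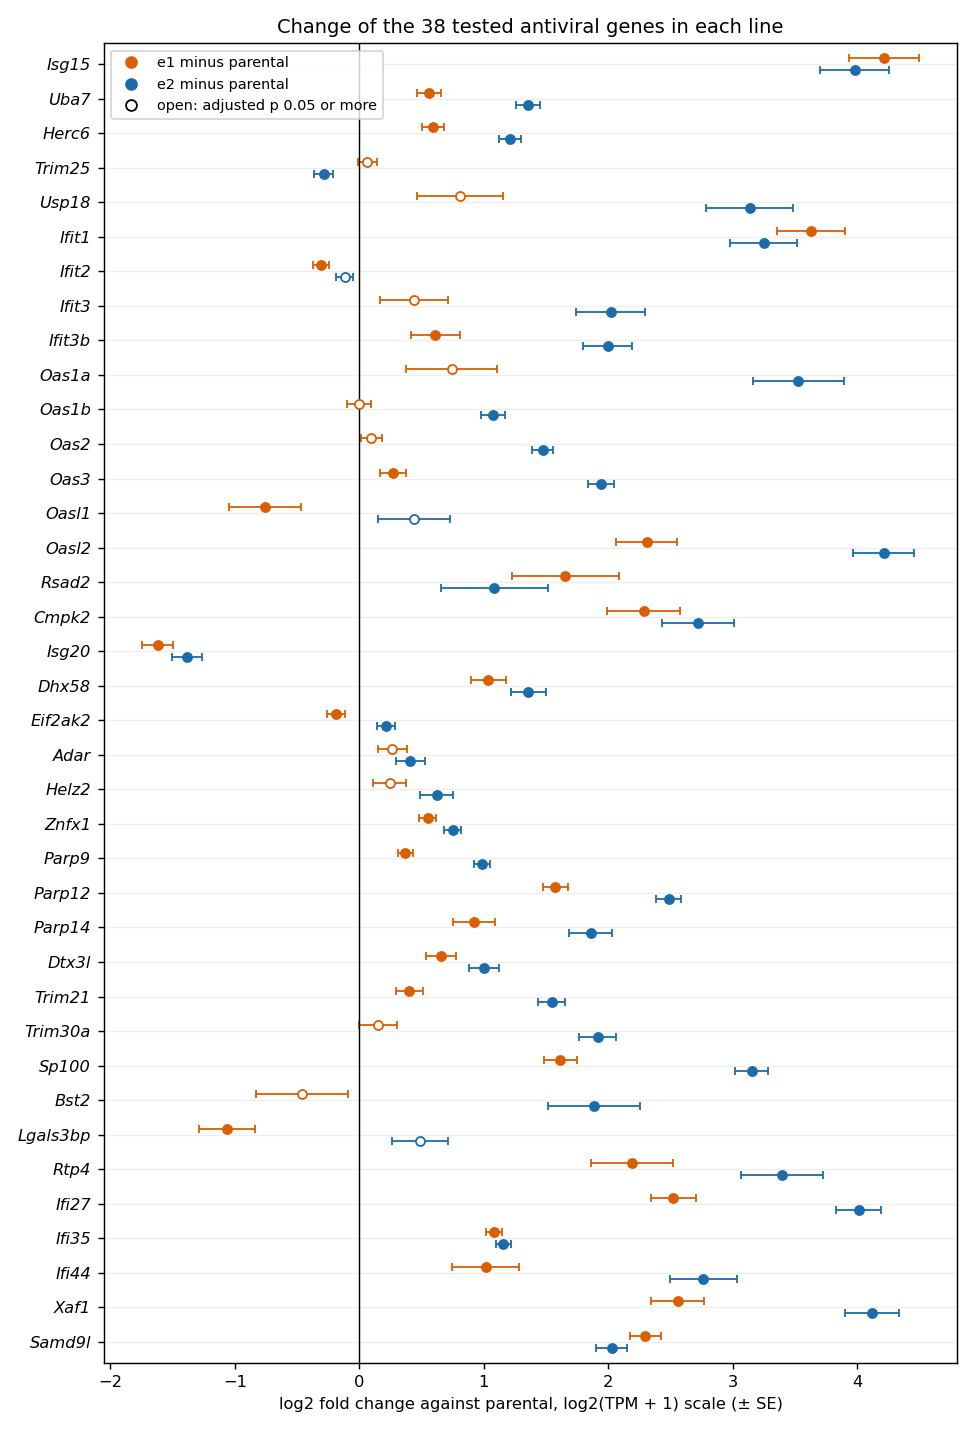
Log2 fold change of the 38 tested members in escape e1 and escape e2 against the parental cells, on the log2(TPM + 1) scale, with standard errors and open symbols where the adjusted p was 0.05 or more. Most points lie right of 0, with Isg20 near -1.6 in e1 and -1.4 in e2 and the e2 value above the e1 value for most genes.

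The promoters were searched for the interferon-stimulated response element. RefSeq promoter windows of GRCm38.p6, 250 bases before to 50 after a gene's start, were matched for 31 of the 41 members. The response element core searched on both strands was GAAANNGAA, shown as its reverse complement where it lies on the opposite strand. It was present in a window of 16 of the 31 members (51.6%), against 9.76% of 27025 genes with such windows. The same core followed by AC was present in 9 members (29.0%) against 0.944% of genes. Copies can overlap, and a match is a run of letters and not a bound site. The 200 bases before the start are shown for 6 members with the core, chosen after their values were seen. Each had a TPM in e1 library 1 more than 2 times the mean of e1 libraries 2 and 3. Ifit1, Ifi44, Oas3 and Trim30a also had the core and passed that ratio but are not shown. Cmpk2, Oasl1 and Oasl2 passed it with no core in their windows. Isg20, which fell in both lines and had no core in any of its windows, is shown as well. Capitals mark the core, and each is read 5′ to 3′ on the gene's strand.
Isg15, chr4:156200819-156201018, minus strand: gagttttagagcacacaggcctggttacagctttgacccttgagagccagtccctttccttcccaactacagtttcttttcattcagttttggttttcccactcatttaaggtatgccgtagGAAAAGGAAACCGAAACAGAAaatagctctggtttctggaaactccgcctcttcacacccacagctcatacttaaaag
Oas1a, chr5:120907526-120907725, minus strand: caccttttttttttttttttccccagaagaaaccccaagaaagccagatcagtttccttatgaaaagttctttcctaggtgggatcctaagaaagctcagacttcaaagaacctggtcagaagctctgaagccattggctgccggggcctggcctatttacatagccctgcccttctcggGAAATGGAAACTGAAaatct
Bst2, chr8:71537473-71537672, minus strand: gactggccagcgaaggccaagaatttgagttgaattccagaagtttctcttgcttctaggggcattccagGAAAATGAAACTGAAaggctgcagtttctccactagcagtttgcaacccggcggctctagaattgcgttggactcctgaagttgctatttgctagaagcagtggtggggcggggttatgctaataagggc
Rsad2, chr12:26456453-26456652, minus strand: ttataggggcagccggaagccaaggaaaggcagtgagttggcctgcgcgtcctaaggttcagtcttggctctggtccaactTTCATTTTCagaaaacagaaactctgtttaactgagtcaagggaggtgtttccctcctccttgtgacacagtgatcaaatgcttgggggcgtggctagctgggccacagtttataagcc
Ifit3, chr19:34583329-34583528, plus strand: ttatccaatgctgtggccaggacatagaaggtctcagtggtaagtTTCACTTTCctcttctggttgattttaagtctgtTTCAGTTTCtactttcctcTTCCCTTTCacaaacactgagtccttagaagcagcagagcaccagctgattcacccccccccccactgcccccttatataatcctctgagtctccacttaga
Ifit3b, chr19:34607757-34607956, plus strand: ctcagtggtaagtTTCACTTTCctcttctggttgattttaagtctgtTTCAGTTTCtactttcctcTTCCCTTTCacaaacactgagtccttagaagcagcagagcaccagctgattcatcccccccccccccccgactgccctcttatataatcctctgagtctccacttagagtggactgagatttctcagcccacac
Isg20, chr7:78913224-78913423, plus strand: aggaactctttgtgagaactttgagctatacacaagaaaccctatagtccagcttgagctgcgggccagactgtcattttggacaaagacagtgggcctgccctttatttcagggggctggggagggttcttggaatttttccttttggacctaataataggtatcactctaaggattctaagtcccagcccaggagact

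In Isg15 the capitals hold 3 overlapping copies, whose first bases lie 78 to 66 bases before the start. Oas1a has 2 copies at 20 and 14 bases and Bst2 has 2 copies at 130 and 124 bases. In Rsad2 a single copy on the opposite strand lies 119 bases before the start. Ifit3 and Ifit3b, neighbouring genes on chromosome 19, have 3 copies each on the opposite strand with nearly the same letters around them. Of the members with the core, 15 were tested, and 8 were called higher and 1 lower in e1 and 14 higher and 1 lower in e2. Over all tested genes 35.7% were called higher and 34.9% lower in e1, and 40.8% and 32.7% in e2. Of the 15 matched members without it, 10 were called higher and 4 lower in e1 and 11 higher and 1 lower in e2. The 4 lower in e1 without a core were Isg20, Lgals3bp, Oasl1 and Ifit2. The median difference of e1 library 1 from the other e1 libraries was 0.71 on the log2(TPM + 1) scale with the core and 0.37 without it, and no test was made of these splits.

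Isg15, a small protein that is attached to other proteins as ubiquitin is, had the largest e1 change of any tested member on the log2(TPM + 1) scale, which understates the change of members nearer 0 in the parental cells such as Ifit1. Its level was 1.02, 0.996 and 1.23 TPM in parental libraries 1 to 3, 66.5, 28.1 and 28.3 TPM in e1, and 32.3, 32.3 and 30.9 TPM in e2. The derived lines did not overlap with the parental cells, and e1 library 1 stood above all other libraries. The log2 fold change was 4.22 ± 0.28 (SE) in e1 (adjusted p = 1.02e-06) and 3.98 ± 0.28 in e2 (adjusted p = 1.39e-06). The difference e2 minus e1 was -0.24 ± 0.28 (adjusted p = 0.472), and without e1 library 1 it was 0.17 with an adjusted p of 0.0416.

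The enzymes of Isg15 attachment moved less than Isg15 itself. Uba7, which activates Isg15, rose from 0.842 ± 0.0437 TPM (SD, n = 3) in parental to 1.73 ± 0.330 in e1 and 3.71 ± 0.251 in e2. Herc6, the main mouse ligase for Isg15, rose from 2.13 ± 0.151 TPM to 3.72 ± 0.305 in e1 and 6.24 ± 0.569 in e2. Neither gene followed the pattern of e1 library 1, which was lowest of the 3 for Uba7 and in the middle for Herc6. Trim25, a ubiquitin and Isg15 ligase that acts on the sensor Ddx58, stood at 24.2, 26.9 and 26.8 TPM in parental, 30.3, 25.7 and 25.8 TPM in e1 and 21.6, 20.5 and 21.2 TPM in e2 libraries. It was the only tested member called lower in e2 than in e1, by a log2 difference of -0.35 ± 0.08 (adjusted p = 0.00226), and it fell by 0.29 in e2 against parental (adjusted p = 0.00671).

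Usp18 removes Isg15 from proteins and damps signalling at the interferon receptor. It stood at 0.741, 0.357 and 0.396 TPM in parental, 4.17, 0.924 and 0.784 TPM in e1 and 11.7, 12.5 and 12.1 TPM in e2 libraries. Escape e1 libraries 2 and 3 lay just above the highest parental library, while library 1 was 4.88 times their mean. The fold change in e2 was 3.14 ± 0.35 (adjusted p = 3.16e-05), and e2 exceeded e1 by 2.33 ± 0.35 (adjusted p = 0.000263). In e1 it was 0.81 ± 0.35 (adjusted p = 0.0629), and without e1 library 1 it was 0.32 with an adjusted p of 0.0272. It also passed without e1 library 2 (1.03, adjusted p = 0.0398) and without e1 library 3 (1.08, adjusted p = 0.0218).

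The IFIT genes encode proteins that bind foreign RNA through repeated helical motifs, and they lie within chr19:34550550-34650009. Ifit1 was near 0 in the parental libraries (0.0991, 0.0231 and 0.114 TPM) and reached 22, 8.83 and 9.52 TPM in e1 and 8.78, 8.64 and 10.4 TPM in e2. The e2 values overlapped with e1 libraries 2 and 3, and e1 library 1 stood above them. The fold change was 3.63 ± 0.27 in e1 (adjusted p = 1.62e-06) and 3.25 ± 0.27 in e2 (adjusted p = 3.36e-06). The difference e2 minus e1 was -0.38 ± 0.27 with all libraries (adjusted p = 0.234) and 0.01 without e1 library 1.

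Ifit3 rose in e2 and Ifit3b in both lines. Ifit3 stood at 1.23, 0.897 and 0.765 TPM in parental, 3.55, 1.07 and 0.973 TPM in e1, and 7.09, 7.01 and 6.65 TPM in e2 libraries. Escape e1 libraries 2 and 3 lay within the parental range. The e2 change was 2.02 ± 0.27 (adjusted p = 0.000104), and e2 exceeded e1 by 1.58 ± 0.27 (adjusted p = 0.000594). Ifit3b rose from 0.268 ± 0.219 TPM to 0.970 ± 0.595 in e1 and 4.02 ± 0.442 in e2. The e1 change of Ifit3b was 0.61 ± 0.20 (adjusted p = 0.0197) and 0.37 when e1 library 1 was left out. The adjusted p of Ifit3b in e1 reached 0.0653 without parental library 2 and 0.0696 without parental library 3. Of the distinct 31-base words in Ifit3 transcripts, 61.8% also occur in Ifit3b, so the split of reads between this pair is uncertain.

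Ifit2 did not follow its neighbours. It was already at 10.1, 11.6 and 10.4 TPM in the parental cells, and measured 8.73, 8.33 and 8.32 TPM in e1 and 9.44, 10.1 and 9.82 TPM in e2. The e1 libraries lay below all others, and the e2 libraries reached into the parental range. The fold change was -0.31 ± 0.07 in e1 (adjusted p = 0.00248) and -0.12 ± 0.07 in e2 (adjusted p = 0.144). Library 1 of e1 was close to the other e1 libraries for this gene.

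OAS enzymes make short oligoadenylates that activate RNase L, which cuts RNA. All 6 genes listed under the family were called higher in e2 than in e1, as were 40.6% of all tested genes. Oas1b, Oas2 and Oas3 were below 1 TPM in every parental and e1 library. Outside e2, Oas1a reached 1 TPM only in e1 library 1. These genes passed the filter only through e2, so the family count is a description and not a fair comparison with that share. The 6 include Oas1b, annotated as a transcribed pseudogene, and the related genes Oasl1 and Oasl2. Oas1a stood at 0.0345, 0.0665 and 0.164 TPM in parental, 2.78, 0.272 and 0.251 TPM in e1, and 11.7, 10.7 and 12.2 TPM in e2 libraries. The e2 libraries were far above the rest, and e1 library 1 was 10.7 times the mean of the other e1 libraries. The e2 change was 3.53 ± 0.37 (adjusted p = 2.28e-05), the largest difference of e2 from e1 among the members was that of Oas1a at 2.78 ± 0.37 (adjusted p = 0.000127), and the e1 change was 0.74 ± 0.37 (adjusted p = 0.0991). Without e1 library 1 the e1 change was 0.21 with an adjusted p of 0.0488. It was 1.0 (adjusted p = 0.0479) without e1 library 2 and 1.01 (adjusted p = 0.0421) without e1 library 3. Oas1a shares 68.7% of its 31-base transcript words with Oas1g, so reads of the 2 genes may have been split.

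Oas2 was listed at 0 in every parental library, at 0 in e1 library 2, at 0.196 and 0.0199 TPM in e1 libraries 1 and 3, and at 1.82, 1.87 and 1.63 TPM in e2. Oas3 stood at 0.0868, 0.0399 and 0.0367 TPM in parental, 0.504, 0.194 and 0.146 TPM in e1 and 2.88, 3.12 and 3.14 TPM in e2. Its e1 change of 0.27 ± 0.10 (adjusted p = 0.0415) was 0.15 without e1 library 1 (adjusted p = 0.109), and its adjusted p ranged from 0.00507 to 0.109 over the alternatives run. For Oas3 leaving out any parental or e2 library also moved the adjusted p in e1 past 0.05, to between 0.0544 and 0.0975. Oas1b, annotated by RefSeq as a transcribed pseudogene in GRCm38.p6, was at 0.434 ± 0.123 TPM in parental, 0.432 ± 0.108 in e1 and 2.02 ± 0.244 in e2.

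Oasl2 and Oasl1 are related to the OAS enzymes and lie next to each other on chromosome 5, yet they moved differently. Oasl2 stood at 0.457, 0.192 and 0.284 TPM in parental, 9.43, 4.10 and 4.09 TPM in e1 and 22.8, 22 and 25.0 TPM in e2. The 3 groups did not overlap. Its fold change was 2.31 ± 0.24 in e1 (adjusted p = 1.94e-05) and 4.21 ± 0.24 in e2 (adjusted p = 2.35e-07), with e2 above e1 by 1.91 ± 0.24 (adjusted p = 8.05e-05).

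Oasl1, known to limit the translation of Irf7, was at 16.2, 15.4 and 15.6 TPM in parental, 16.6, 6.68 and 6.15 TPM in e1 and 22, 20.3 and 22.8 TPM in e2. Escape e1 library 1 was above the parental range, whereas the other 2 e1 libraries lay below it. The e1 change was -0.76 ± 0.29 (adjusted p = 0.0430) and -1.18 without e1 library 1 (adjusted p = 1.36e-07). Leaving out any of the other 8 libraries moved the adjusted p in e1 past 0.05 for Oasl1, to between 0.0568 and 0.144. In e2 the change was 0.44 ± 0.29 (adjusted p = 0.201), and it passed the threshold without e1 library 1 (adjusted p = 6.14e-05). All e2 libraries of Oasl1 lay above all parental ones.

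Mx1 and Mx2 encode dynamin-like GTPases that trap viral components, and many laboratory mouse strains carry defective copies. Both are annotated as transcribed pseudogenes in GRCm38.p6, and neither passed the filter. Mx1 stood at 0.518, 0.264 and 0.361 TPM in parental, 0.370, 0.153 and 0.378 TPM in e1 and 0.342, 0.145 and 0.332 TPM in e2, with all groups overlapping. Mx2 stood at 0.0263, 0.0254 and 0.0313 TPM in parental, 0.416, 0.138 and 0.0655 TPM in e1 and 0.385, 0.424 and 0.290 TPM in e2. With no filter the e2 change of Mx2 was 0.41 (adjusted p = 0.00475) and that of Mx1 -0.12 (adjusted p = 0.353).

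Rsad2 (viperin) makes a nucleotide analog that stops viral RNA synthesis, and Cmpk2 is a nucleotide kinase encoded beside it on chromosome 12. Rsad2 stood at 0.108, 0.0629 and 0.0969 TPM in parental, 6.94, 1.16 and 1.36 TPM in e1, and 1.37, 1.13 and 1.44 TPM in e2 libraries. Escape e1 libraries 2 and 3 matched the e2 range, and library 1 was 5.52 times their mean. The e1 change of 1.66 ± 0.43 (adjusted p = 0.00832) was 1.05 without library 1 (adjusted p = 3.54e-06). The e2 change of 1.08 ± 0.43 (adjusted p = 0.0490) did not pass without any 1 of the parental or e2 libraries (adjusted p from 0.0821 to 0.109), and passed without e1 library 1 (adjusted p = 9.76e-07). All e2 libraries of Rsad2 lay above all parental ones, and the SE includes the wide spread of e1. Cmpk2 rose from 0.0195, 0.0188 and 0.0464 TPM to 8.03, 2.97 and 2.51 TPM in e1 and 5.37, 6.23 and 5.77 TPM in e2. Its e2 minus e1 difference was 0.44 ± 0.29 (adjusted p = 0.206) and 0.86 without e1 library 1 (adjusted p = 1.53e-05).

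Isg20, an exonuclease that degrades RNA, was the only member called lower in both lines. It stood at 57.7, 60.4 and 53.0 TPM in parental, 16.2, 16.7 and 20.9 TPM in e1, and 20.0, 25.1 and 18.8 TPM in e2. All derived libraries lay below all parental ones. The fold change was -1.62 ± 0.12 in e1 (adjusted p = 1.53e-06) and -1.39 ± 0.12 in e2 (adjusted p = 4.36e-06), and the call held in both lines under every alternative run. The e2 minus e1 difference was 0.23 (adjusted p = 0.11), and 0.34 with an adjusted p of 0.0270 without e1 library 3.

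**Figure D3:**
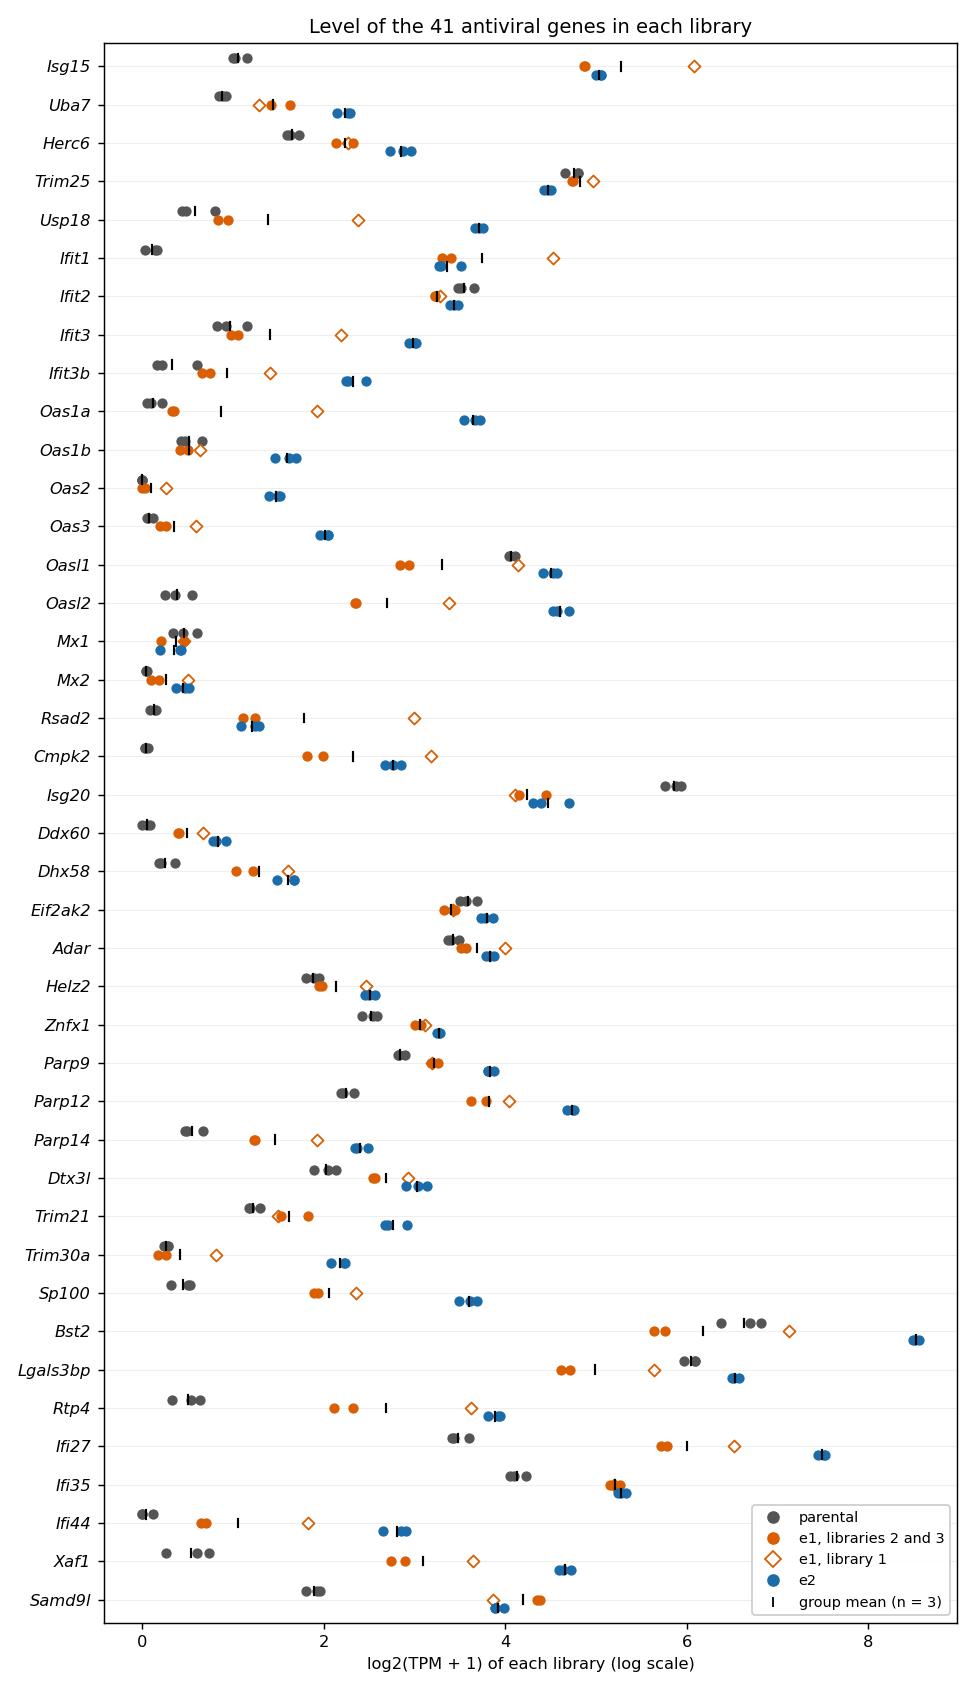
Level of each of the 41 genes in every library as log2(TPM + 1), grouped by role from Isg15 at the top, with 1 symbol per library, open diamonds for escape e1 library 1 and a short vertical line at each group mean. Parental symbols lie left of both derived lines for most genes, Isg20 is the reverse, and open diamonds lie right of the other e1 symbols for 32 genes.

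Of the 5 tested helicase, kinase and editor genes that act on RNA, 2 were called higher and 1 lower in e1 and all 5 higher in e2, against 35.7% and 34.9% of all tested genes in e1 and 40.8% and 32.7% in e2. Eif2ak2 (PKR), the kinase that stops translation on binding double-stranded RNA, was called lower in e1 and higher in e2. With all libraries no other member was called in opposite directions, and without e1 library 1 Bst2 (-0.94 and 1.89), Lgals3bp (-1.39 and 0.49) and Oasl1 (-1.18 and 0.44) were too. Eif2ak2 stood at 11.9, 10.8 and 10.3 TPM in parental, 9.71, 9.88 and 8.99 TPM in e1 and 13.6, 12.7 and 12.3 TPM in e2, so the groups were ordered without overlap. The change was -0.19 ± 0.07 in e1 (adjusted p = 0.0400) and 0.21 ± 0.07 in e2 (adjusted p = 0.0221). Both calls were close to the threshold: adjusted p ranged from 0.0265 to 0.133 in e1 and from 0.000113 to 0.183 in e2 over the alternatives. The call of Eif2ak2 was lost in e1 without any 1 of 7 libraries (all but parental library 3 and e1 library 1) and in e2 without parental library 2 or 3 or e2 library 1 or 2. The difference e2 minus e1 was 0.40 ± 0.07 (adjusted p = 0.000728) and passed under all alternatives.

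Adar, which edits adenosine to inosine in double-stranded RNA, stood at 10.2, 9.58 and 9.34 TPM in parental, 14.9, 10.4 and 10.8 TPM in e1 and 13.7, 12.8 and 13.2 TPM in e2. Escape e1 library 1 was the highest of all 9. Adar rose in e2 by 0.41 ± 0.12 (adjusted p = 0.0103), while the e1 change was 0.27 ± 0.12 (adjusted p = 0.0671). That e1 change was 0.11 without e1 library 1 (adjusted p = 0.114) and 0.36 without e1 library 2 (adjusted p = 0.0259). The e2 minus e1 difference was 0.14 ± 0.12 (adjusted p = 0.297), and 0.30 without e1 library 1 (adjusted p = 0.00150).

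Dhx58 (LGP2), which tunes the RNA sensors Ddx58 and Ifih1, rose from 0.189 ± 0.0814 TPM to 1.47 ± 0.513 in e1 and 2.05 ± 0.215 in e2. It was below 1 TPM in all parental libraries. Its e2 minus e1 difference was 0.32 ± 0.14 (adjusted p = 0.0623) and 0.48 without e1 library 1 (adjusted p = 0.00185). Helz2, a helicase, rose in e2 from 2.69 ± 0.181 to 4.68 ± 0.221 TPM, and e1 libraries 2 and 3 (2.84 and 2.95 TPM) lay at the parental level while library 1 (4.51 TPM) lay at the e2 level. Znfx1, a helicase that senses viral RNA, rose from 4.72 ± 0.335 TPM to 7.36 ± 0.314 in e1 and 8.61 ± 0.0972 in e2. The e2 minus e1 calls of Helz2 (0.38, adjusted p = 0.0280), Znfx1 (0.20, adjusted p = 0.0260), Dtx3l (0.34, adjusted p = 0.0273) and Ifit2 (0.19, adjusted p = 0.0290) were lost without e1 library 2 or 3 and without some of the e2 libraries, with adjusted p up to 0.102, 0.180, 0.101 and 0.212 over all alternatives. Ddx60, a helicase below the filter, stood at 0, 0.0389 and 0.0600 TPM in parental, 0.586, 0.318 and 0.315 TPM in e1 and 0.749, 0.890 and 0.718 TPM in e2.

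The ADP-ribosyltransferases and Dtx3l were called higher in both lines and again from e1 to e2, 4 of 4 in each comparison. Of all tested genes, 35.7% were called higher in e1, 40.8% in e2 and 40.6% for e2 minus e1. Parp12 stood at 4.04, 3.61 and 3.57 TPM in parental, 15.4, 12.8 and 11.3 TPM in e1 and 26.1, 25.9 and 24.6 TPM in e2, a change of 1.57 ± 0.10 in e1 and 2.49 ± 0.10 in e2. Parp14, below 1 TPM in all parental libraries, rose from 0.458 ± 0.113 TPM to 1.83 ± 0.821 in e1 and 4.28 ± 0.271 in e2. Parp9 and Dtx3l encode partners that modify ubiquitin and histones, and their genes lie within chr16:35926515-35972621 and overlap at 35938470-35939027. Parp9 rose from 6.17 ± 0.208 TPM to 8.26 ± 0.288 in e1 and 13.2 ± 0.397 in e2, and Dtx3l from 3.08 ± 0.344 TPM to 5.45 ± 1.0 in e1 and 7.15 ± 0.633 in e2. For Parp9 e1 library 1 (8.13 TPM) lay between the other 2 (8.05 and 8.59 TPM), whereas for Dtx3l it was above them (6.61 against 4.83 and 4.92 TPM).

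Of the TRIM and nuclear body genes, Sp100, a component of the nuclear bodies that repress viral genomes, changed most. It stood at 0.414, 0.441 and 0.240 TPM in parental, 4.11, 2.72 and 2.82 TPM in e1, and 11.9, 11.2 and 10.2 TPM in e2, with no overlap between groups. The change was 1.62 ± 0.13 in e1 (adjusted p = 2.75e-06) and 3.15 ± 0.13 in e2 (adjusted p = 2.15e-08). Trim21, a cytosolic antibody receptor and ubiquitin ligase, rose from 1.33 ± 0.112 TPM to 2.09 ± 0.398 in e1 and 5.81 ± 0.624 in e2. Trim30a, a ligase found in rodents, was at 0.212, 0.176 and 0.213 TPM in parental, 0.758, 0.195 and 0.122 TPM in e1 and 3.66, 3.70 and 3.22 TPM in e2. It rose in e2 by 1.91 ± 0.15 (adjusted p = 2.18e-06), and its e1 change of 0.15 ± 0.15 (adjusted p = 0.400) was -0.05 without e1 library 1.

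At the cell surface and in secretion, Bst2 and Lgals3bp were the most abundant members in the parental cells. Bst2 (tetherin) holds budding virus particles at the membrane. It stood at 82.1, 112 and 103 TPM in parental, 139, 48.8 and 53.0 TPM in e1, and 375, 358 and 366 TPM in e2. Escape e1 library 1 was above the parental range and the other e1 libraries below it. The e2 change was 1.89 ± 0.37 (adjusted p = 0.00217) and e2 exceeded e1 by 2.35 ± 0.37 (adjusted p = 0.000713). The e1 change was -0.46 ± 0.37 (adjusted p = 0.294), and without e1 library 1 it was -0.94 with an adjusted p of 5.37e-05.

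Lgals3bp, a secreted protein that binds galectins, stood at 61.4, 66.9 and 67.0 TPM in parental, 48.7, 25.2 and 23.4 TPM in e1, and 94.4, 90.9 and 89.4 TPM in e2. The groups were ordered without overlap, e1 lowest and e2 highest. It fell by 1.06 in e1 (SE 0.23, adjusted p = 0.00227) and was 1.55 ± 0.23 higher in e2 than in e1 (adjusted p = 0.000223). In e2 against parental the change was 0.49 ± 0.23 (adjusted p = 0.0773), which passed without e1 library 1 (adjusted p = 1.16e-05) or e1 library 3 (adjusted p = 0.0472). Rtp4, a chaperone of membrane receptors that also binds RNA, stood at 0.550, 0.449 and 0.252 TPM in parental, 11.3, 4.0 and 3.32 TPM in e1 and 14.1, 14.4 and 13 TPM in e2. Its change was 2.19 ± 0.33 in e1 (adjusted p = 0.000265) and 3.39 ± 0.33 in e2 (adjusted p = 1.23e-05).

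The remaining 5 genes were called higher in both lines, as were 35.7% of all tested genes in e1 and 40.8% in e2. Of these, Ifi44 and Xaf1 were below 1 TPM in all parental libraries. Ifi27, a small membrane protein of mitochondria and the nuclear envelope, stood at 9.84, 9.61 and 11.1 TPM in parental, 90.4, 51.7 and 54.0 TPM in e1, and 181, 183 and 173 TPM in e2. Its change was 2.52 ± 0.18 in e1 (adjusted p = 1.07e-06) and 4.01 ± 0.18 in e2 (adjusted p = 3.64e-08). Xaf1, a partner of the caspase inhibitor Xiap that favours cell death, stood at 0.664, 0.521 and 0.199 TPM in parental, 11.5, 6.44 and 5.67 TPM in e1, and 25.5, 23.1 and 23.9 TPM in e2. It rose by 2.56 ± 0.22 in e1 (adjusted p = 3.77e-06) and 4.12 ± 0.22 in e2 (adjusted p = 1.12e-07), and e2 exceeded e1 by 1.56 ± 0.22 (adjusted p = 0.000131). For both genes the 3 groups were separate.

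Ifi44 stood at 0.0861, 0 and 0 TPM in parental, 2.54, 0.622 and 0.564 TPM in e1 and 6.23, 6.48 and 5.29 TPM in e2. Its e1 change of 1.02 ± 0.27 (adjusted p = 0.00700) was 0.63 without e1 library 1 (adjusted p = 0.000205), and e2 exceeded e1 by 1.75 ± 0.27 (adjusted p = 0.000262). Ifi35, a leucine-zipper protein, rose from 16.5 ± 1.09 TPM to a like level in both lines, 35.9 ± 1.41 in e1 and 37.9 ± 1.28 in e2, and the 3 e1 libraries were close together. Samd9l, which restrains translation and cell growth, was at 2.50, 2.78 and 2.89 TPM in parental, 13.5, 19.8 and 19.3 TPM in e1 and 14.8, 13.8 and 13.8 TPM in e2. It rose by 2.30 ± 0.13 in e1 (adjusted p = 2.01e-07) and 2.03 ± 0.13 in e2 (adjusted p = 4.29e-07). Here e1 library 1 was the lowest e1 library. The e2 minus e1 difference was -0.27 ± 0.13 (adjusted p = 0.0820) with it and -0.44 (adjusted p = 0.000218) without it.

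Other genes of the interferon pathway were read from lists, in order from ligand to target. Some of those tested were below 1 TPM in all parental libraries and could be tested only through the derived lines. None of the 18 interferon ligand genes passed the filter, and 13 of them were listed at 0 in all 9 libraries. Ifnb1 was listed at 0 in the parental libraries, at 0.177, 0 and 0 TPM in e1 and at 0.211, 0.125 and 0.249 TPM in e2. The highest value of any ligand was 1.12 TPM, for Ifnz, which stood at 0.251, 0.170 and 0 TPM in parental, 0.396, 0.337 and 0.272 TPM in e1 and 0.683, 1.03 and 1.12 TPM in e2.

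Of 17 tested receptor and signalling genes, 8 were called higher and 6 lower in e1, and 9 higher and 5 lower in e2, against 35.7% and 34.9% of all tested genes in e1 and 40.8% and 32.7% in e2. Ifnar1 was at 15.7 ± 0.295 TPM in parental, 16.4 ± 2.50 in e1 and 14.2 ± 0.174 in e2 and was called in neither line. Its e1 libraries stood at 13.5, 18.1 and 17.6 TPM, library 1 below and the others above the parental range of 15.4 to 16.0. All e2 libraries of Ifnar1, at 14.1 to 14.4 TPM, lay below that range. The e2 change was -0.14 ± 0.10 (adjusted p = 0.217), and the SE includes the wide spread of e1. Ifnar2 was at 29.8 ± 1.58 TPM in parental, rose to 39.3 ± 1.42 in e1 and fell to 20.7 ± 0.400 in e2. Jak1 rose from 31.8 ± 2.28 TPM to 38.7 ± 3.87 in e1 and 40.9 ± 2.01 in e2. Tyk2 was at 7.03, 7.99 and 8.08 TPM in parental, 6.05, 10.0 and 9.41 TPM in e1 and 12.6, 12.1 and 13.1 TPM in e2, and was called in e2 (0.65, adjusted p = 0.00341) but not in e1 (0.10, adjusted p = 0.565). The e2 minus e1 difference of Tyk2 was 0.54 (adjusted p = 0.00928).

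Stat2 and Irf9, which bind the response element together, stood highest in e2. Stat2 was at 2.53 ± 0.436 TPM in parental and 2.46 ± 0.593 in e1, with a change of -0.03 (adjusted p = 0.835), and rose to 5.88 ± 0.404 in e2. Irf9 rose from 2.88 ± 0.224 TPM to 9.05 ± 1.59 in e1 and 20.1 ± 0.271 in e2.

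Irf7, the factor that amplifies interferon production, was at 0.655, 1.05 and 0.664 TPM in parental, 5.23, 2.06 and 2.46 TPM in e1 and 20.7, 23.6 and 21.9 TPM in e2. Its e1 library 1 was the highest of the e1 libraries, as for most members. Irf1, a factor also induced by interferon gamma, rose from 15.5 ± 1.17 TPM to 52.4 ± 1.41 in e1 and 38.1 ± 0.962 in e2, and was thus higher in e1 than in e2 (e2 minus e1 -0.45, adjusted p = 0.000118). For Irf1 the e1 libraries lay close together, at 52.3, 53.9 and 51.1 TPM.

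Among 13 nucleic acid sensors and adaptors, 6 were called higher and 3 lower in e1, and 9 higher and 2 lower in e2, against 35.7% and 34.9% of all tested genes in e1 and 40.8% and 32.7% in e2. The genes called lower in both lines were Tlr3, an endosomal receptor of double-stranded RNA, and the kinase Ikbke. Tlr3 was at 11 ± 2.37 TPM in parental, 1.06 ± 0.141 in e1 and 3.24 ± 0.406 in e2, and Ikbke at 7.12 ± 1.16, 1.73 ± 0.409 and 2.43 ± 0.0345 TPM. Aim2 was called lower in e1 (-0.50) and higher in e2 (3.07). Tlr3, Ikbke and Aim2 were chosen after their values were seen. Ddx58 (RIG-I), a sensor of viral RNA ends, stood at 2.24, 2.19 and 2.15 TPM in parental, 18.0, 14.1 and 14.2 TPM in e1 and 33.5, 30.6 and 31.9 TPM in e2. Mb21d1 (cGAS), the sensor of cytosolic DNA, stood at 0.277, 0.377 and 0.323 TPM in parental, 12.5, 10.0 and 8.88 TPM in e1 and 6.94, 7.02 and 6.17 TPM in e2, higher in e1 than in e2. Ifih1 (MDA5), a sensor of long double-stranded RNA, stood at 2.83 ± 0.183 TPM in parental, at 7.78, 3.02 and 3.19 TPM in e1 and at 4.02 ± 0.0958 in e2. Its changes of 0.47 ± 0.25 in e1 (adjusted p = 0.125) and 0.39 ± 0.25 in e2 (adjusted p = 0.186) did not pass the threshold. The e2 libraries of Ifih1 still lay above all parental ones, and the SE includes the wide spread of e1.

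Among 10 negative regulators, 5 were called higher and 3 lower in e1, and 5 higher and 2 lower in e2, where the shares of all tested genes were 35.7% and 34.9% in e1 and 40.8% and 32.7% in e2. Socs1, an inhibitor of Jak kinases, was at 6.76 ± 1.12 TPM in parental, 7.29 ± 0.384 in e1 and 6.55 ± 0.221 in e2 and was called in neither line. Of 24 tested genes from a list of other interferon-induced genes, 19 were called higher and 2 lower in e1, and 21 higher and 2 lower in e2. Many of them, among them Ifitm1, Ifitm3, Gbp2, Gbp3, Psmb8 and Nlrc5, were below 1 TPM in all parental libraries. Such genes could be tested only through the derived lines, so these counts are a description and not a fair comparison with the shares of all tested genes. Ifitm3, which blocks virus entry at endosomes, stood at 0.256, 0 and 0 TPM in parental, 539, 626 and 621 TPM in e1, and 822, 811 and 816 TPM in e2. Its change on the log2(TPM + 1) scale, 9.11 ± 0.10 in e1 and 9.57 ± 0.10 in e2, exceeded that of any of the 41 members, and e1 library 1 was the lowest e1 library.

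**Figure D4:**
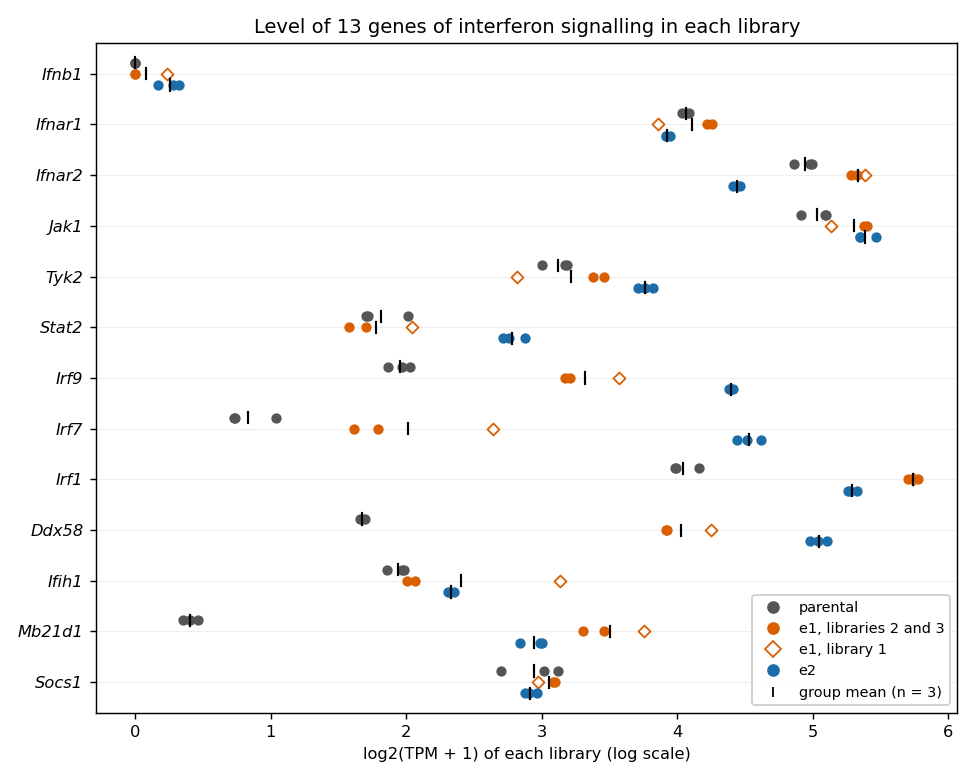
Level of 13 genes of interferon signalling in every library as log2(TPM + 1), from the ligand Ifnb1 to the inhibitor Socs1, with 1 symbol per library, open diamonds for escape e1 library 1 and a short vertical line at each group mean. Irf9 and Irf7 in e2 lie right of e1 and parental, Irf1 and Mb21d1 lie furthest right in e1, and Ifnb1 lies near 0 throughout.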

How the data were processed

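The authors deposited TPM values per gene and library, and rlog values, which are on a log2 scale. Per the submitters' processing notes, the authors' tools included Salmon and DESeq2 and their build was mm10. Versions, roles, annotation and strand setting: not given in the sources used here. No batch is named in the labels. Groups were read from the sample titles. In limma 3.58.1 (R 4.3.3), 3 group means were fitted to log2(TPM + 1) for all 9 libraries, with robust empirical Bayes and a trend in the variance. Genes reaching 1 TPM in 3 or more libraries entered the fit, 12769 in all, and two-sided p-values were adjusted over them by the Benjamini-Hochberg method. The script was tested on simulated data.

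All 41 members are named. Full statistics are given for the 8 called members of each comparison with the largest fold change among those whose higher group averaged 5 TPM or more, for members called in opposite directions, and for members whose call changes without e1 library 1. The members and lists were chosen with earlier results of these data known. Alternatives covered the pseudocount, filter, scaling, rlog values, groups in the fit, replicate block, empirical Bayes options, library weights and leaving out each library. Locations and promoters are from RefSeq tables of GRCm38.p6, with 31 of 41 members matched to a promoter, and shared 31-base words were counted in GENCODE M21 transcripts. 1 gene of the signalling list is not reported here.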

Additional observations from a re-analysis of the deposited data

Results flagged for a closer look

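The effects of the derived lines against the shared parental cells differed for 29 of the 38 tested members, tested as e2 minus e1 in limma with the adjusted p under 0.05. Of all tested genes, 40.6% were called higher and 29.7% lower in e2. Some of the members, among them Oas1a, Oas1b, Oas2, Oas3 and Trim30a, passed the filter only through e2, so the count is a description. The log2 differences of the members higher in e2 were, for the ISG15 system, 2.33 for Usp18, 0.79 for Uba7 and 0.62 for Herc6. In the IFIT family they were 1.58 for Ifit3, 1.39 for Ifit3b and 0.19 for Ifit2. In the OAS family they were 2.78 for Oas1a, 1.91 for Oasl2, 1.67 for Oas3, 1.38 for Oas2, 1.2 for Oasl1 and 1.08 for Oas1b. Among helicases and the kinase they were 0.40 for Eif2ak2, 0.38 for Helz2 and 0.20 for Znfx1. The ADP-ribosyltransferase group gave 0.94 for Parp14, 0.91 for Parp12, 0.62 for Parp9 and 0.34 for Dtx3l. The TRIM and nuclear body genes gave 1.77 for Trim30a, 1.54 for Sp100 and 1.14 for Trim21. The surface, secreted and trafficking genes gave 2.35 for Bst2, 1.55 for Lgals3bp and 1.2 for Rtp4. The other induced genes gave 1.75 for Ifi44, 1.56 for Xaf1 and 1.49 for Ifi27. Trim25 was lower in e2 than in e1, at -0.35.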

How the results depend on the processing

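Over the alternatives in which the gene was tested, 24 of the 28 member calls in e1, 32 of the 35 in e2 and 25 of the 29 for e2 minus e1 passed every time. The calls lost under some were Eif2ak2, Ifit3b, Oas3 and Oasl1 in e1, Adar, Eif2ak2 and Rsad2 in e2, and Dtx3l, Helz2, Ifit2 and Znfx1 for e2 minus e1. Members called higher numbered 17 to 26 in e1, 23 to 35 in e2 and 20 to 32 for e2 minus e1, with the low ends where a filter of 5 TPM left 28 members tested. Members lower in e1 numbered 3 with median-ratio scaling and with 2 groups only, and 3 to 6 on leaving out 1 library. Members lower in e2 than in e1 numbered 2 with median-ratio scaling, rlog values and library weights, and 1 to 2 on leaving out 1 library. The stricter promoter motif was found in 9 members in place of 16.

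Signs changed for differences that were not called with all libraries, and the cause was not tested. The e1 change of Oas1b was 0.0001806 with median-ratio scaling and -0.0581 to 0.0673 on leaving out 1 library. With library weights (0.0800 for e1 library 1) the e1 change was -0.0476 for Trim25 and -0.0490 for Trim30a, and the e2 minus e1 difference of Isg15 was 0.136. On leaving out 1 library the e1 change ran from -0.0110 to 0.104 for Trim25 and from -0.0513 to 0.272 for Trim30a. The e2 minus e1 difference then ran from -0.604 to 0.00938 for Ifit1, from -0.440 to 0.166 for Isg15 and from -0.906 to 0.0344 for Rsad2, each highest without e1 library 1, where that of Isg15 was called (adjusted p = 0.0416). For Ifi35 that difference was -0.0239 with median-ratio scaling and -0.0203 with rlog values.

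With a replicate block, the library number of the titles, 24 members were higher and 5 lower in e1, 33 and 2 in e2, and 27 and 1 for e2 minus e1. Same-numbered libraries deviated from their group means with correlations of -0.13 to 0.0499 over genes, so the numbers were not taken to pair the libraries.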
